A study of Mus musculus with 6 samples.

Results

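Fn3k and Fn3krp are neighbouring mouse genes for a pair of related small-molecule kinases, and they were measured here by 3 of the 25631 rows of a testis expression array. The members were all rows whose RefSeq accession, without its version, belongs to either gene, which gave 2 rows for Fn3k (NM_022014 and NM_001038699) and 1 row for Fn3krp (NM_181420). The pair was selected on its log2 difference between the Dmrt1 KO and control arrays of this study, so those differences are given as a description and carry no test. The samples were testes of male mice at postnatal day 9, all from the line that the labels call NGN-cre. They formed a control group of 3 arrays, whose samples were Cre-negative, and a Dmrt1 KO group of 3 arrays, whose samples were Cre-positive and in which Dmrt1 was conditionally targeted. Each array carried 1 sample labelled with Cy3. The cells in which this Cre acts, the strain background and whether animals were pooled are not stated in these sources. Every targeted sample carried Cre and no control did, so Cre and the loss of Dmrt1 cannot be told apart. The labels do not say whether replicates are separate animals, so every p-value measures only the spread between these samples, which may be technical.

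Sugars attach to the amino groups of proteins without any enzyme, a reaction known as glycation. Fn3k encodes fructosamine-3-kinase, which phosphorylates the fructosamines that glucose leaves on proteins and so makes the adduct unstable and prone to fall off. Fn3krp encodes fructosamine-3-kinase-related protein, which acts on ribulosamines and psicosamines, the adducts left by sugars such as ribose, and does not act on fructosamines. Both enzymes are known from red blood cells, and Fn3k also from tissues such as kidney and brain.

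The members lie next to each other on chromosome 11 in the gene order of RefSeq, with Fn3krp first. The RefSeq promoter table (build GRCm38.p6) matched 1 of the 2 genes, Fn3krp. Its 300 bases run from 250 before to 50 after the annotated start on the plus strand, at chr11:121421123-121421422. They are shown because Fn3krp was the only member matched. Capitals mark matches to CCAAT and to the GC box GGGCGG, each searched on both strands.
Fn3krp promoter: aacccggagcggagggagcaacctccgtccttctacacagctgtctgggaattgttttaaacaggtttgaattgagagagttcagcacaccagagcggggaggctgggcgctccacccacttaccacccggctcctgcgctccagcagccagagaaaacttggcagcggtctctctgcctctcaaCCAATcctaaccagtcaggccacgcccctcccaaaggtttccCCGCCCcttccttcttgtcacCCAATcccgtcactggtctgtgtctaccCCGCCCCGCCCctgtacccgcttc
The window was 60% G and C and held 14 CG dinucleotides. It held 2 matches to CCAAT, which occurs in 37.4% of the 32851 promoters of this length, and 3 matches to GGGCGG, which occurs in 35.7%. Matches of different motifs did not overlap. The core ACANTGT of sites bound by DM-domain proteins such as Dmrt1, present in 7.54% of promoters, and the box TATAAA, present in 13.6%, had 0 matches, which says only that these letters are not in this window.

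The arrays were alike in overall brightness, with median intensities from 498.1 to 543.8. Dmrt1 KO replicate 3 stood apart from the rest by Pearson correlation over the log2 values of all rows (which are no replicates). Its correlation with the other arrays was 0.966 to 0.973, whereas the highest correlation of each other array was 0.986 to 0.988. Some values are also given without Dmrt1 KO replicate 3, and a value given once may also move without it. The targeted gene, Dmrt1, was lower in all 3 Dmrt1 KO arrays, with log2 intensities of 11.98, 12.08 and 12.27 against 13.59, 13.49 and 13.21 in the controls. Of the markers fixed for the tissue, 11 of 11 measured Sertoli cell markers and 11 of 12 germ cell markers lay above a background guide in every array. That guide, a log2 intensity of 7.19, is the 95th percentile of 1064 olfactory receptor rows. Over all rows only 34.3% had a control mean below the guide, so such counts say little about the tissue.

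Fn3k was dim in control testes and brighter in every Dmrt1 KO array. Its brighter row, NM_022014, gave intensities of 70.6, 124.2 and 98.3 for control replicates 1, 2 and 3. For the Dmrt1 KO replicates it gave 487.9, 333.9 and 366.2 in the same order. All 3 Dmrt1 KO arrays therefore lay above all 3 controls, with log2 intensities of 8.38 to 8.93 against 6.14 to 6.96. The mean was 6.57 ± 0.41 (SD, n = 3) in the controls and 8.61 ± 0.29 (SD, n = 3) in the Dmrt1 KO arrays, a log2 difference of 2.04 ± 0.27 (SE), or 4.11-fold. The control mean lay below the background guide, so the size of this fold depends on the scale, and with log2(value + 50) the log2 difference was 1.60. Leaving out Dmrt1 KO replicate 3 gave 4.24-fold.

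The other Fn3k row, NM_001038699, stands for another RefSeq transcript of the same gene and was dimmer still. On the log2 scale it measured 4.23, 5.23 and 4.73 in the controls and 5.94, 5.41 and 5.36 in the Dmrt1 KO arrays. The groups did not overlap, but the nearest arrays of the 2 groups were close, and every one of the 6 values lay under the background guide. The log2 difference was 0.84 ± 0.30 (SE), and 0.34 with log2(value + 50). Both Fn3k rows ranked the arrays alike at the extremes: control replicate 1 was the lowest and Dmrt1 KO replicate 1 the highest in each. No source used here says whether the rows share probe sequence, so they cannot be read as separate measurements of 2 transcripts.

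Fn3krp ran the other way, and unevenly. Control replicates 1, 2 and 3 gave intensities of 2051, 1933 and 1370. The Dmrt1 KO replicates gave 188.6, 274.7 and 1352 in the same order. The first 2 Dmrt1 KO arrays were thus 9.32-fold and 6.40-fold below the control mean, while Dmrt1 KO replicate 3 was 1.30-fold below it and nearly level with control replicate 3. On the log2 scale the controls averaged 10.78 ± 0.31 (SD, n = 3) and the Dmrt1 KO arrays 8.69 ± 1.51 (SD, n = 3). The difference was -2.09 ± 0.65 (SE), and without Dmrt1 KO replicate 3 it was -2.95 ± 0.28, or 7.72-fold lower. The groups failed to overlap only by the small gap between 10.42 in control replicate 3 and 10.40 in Dmrt1 KO replicate 3. In bulk tissue, fewer cells that express a gene and less of its RNA per cell cannot be told apart.

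**Figure D1:**
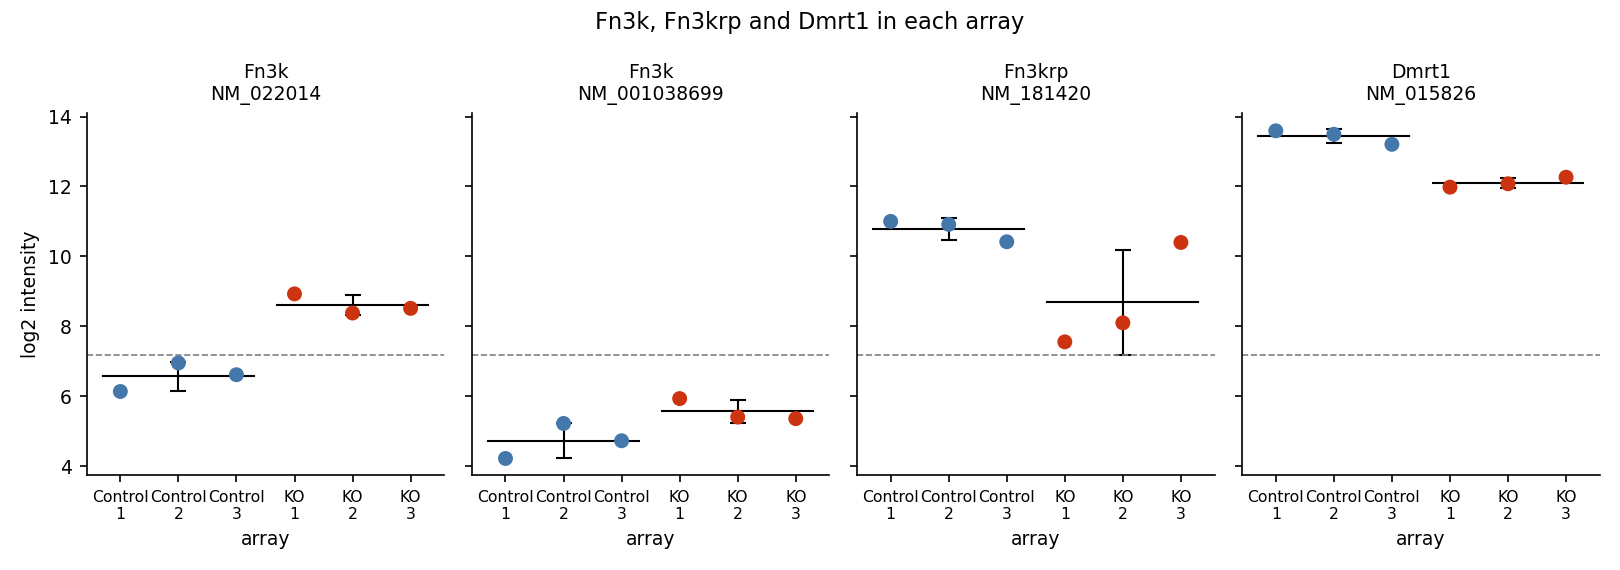
Log2 intensity of the 2 Fn3k rows, the Fn3krp row and the Dmrt1 row in each of the 6 arrays, with controls in blue and Dmrt1 KO arrays in red. Horizontal lines are group means, bars are SD (n = 3) and the dashed line is the background guide at 7.19. Fn3k NM_022014 is higher in all 3 Dmrt1 KO arrays, whereas Fn3krp is low in replicates 1 and 2 and at 10.40 in replicate 3.

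The spread of Fn3krp within the Dmrt1 KO group was wide against that of other rows. Its highest and lowest Dmrt1 KO arrays were 2.84 apart on the log2 scale, a range that 0.679% of all rows reached. Among the 16848 rows with a control mean above the background guide 0.415% reached it. The 3 controls were 0.58 apart, a range that 38.1% of rows reached or exceeded. Fn3k NM_022014 had an ordinary range in both groups, 0.55 in the Dmrt1 KO arrays, which 52.4% of rows reached, and 0.82 in the controls, which 19.5% reached.

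Over all rows, 0.0312% passed limma's adjusted p of 0.05, and 0 of the 3 member rows were among them, although Fn3k NM_022014 and Fn3krp each passed in some alternative fits given at the end. Groups did not overlap in 3 of the 3 member rows and in 15.3% of all rows. The member rows held 1 of the 40 rows that were at least 4-fold higher in the Dmrt1 KO arrays (0.156% of all rows). They also held 1 of the 7 that were at least 4-fold lower (0.0273%). These counts use the values that chose the pair, and nothing is read from them.

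The array number in the titles splits the arrays into 3 groups, and the labels do not say what the number stands for. Group 1 held control replicate 1 and Dmrt1 KO replicate 1, group 2 held control replicates 2 and 3 and Dmrt1 KO replicate 2, and group 3 held Dmrt1 KO replicate 3 alone. For Fn3k NM_022014 the log2 difference was 2.79 within group 1 and 1.60 within group 2, and 2.11 ± 0.32 (SE) with the group as a block. For Fn3k NM_001038699 the same 3 values were 1.71, 0.43 and 0.98. Fn3krp gave -3.44 within group 1, -2.57 within group 2 and -2.94 ± 0.30 (SE) with the block, which gives the lone array of group 3 no weight. Every direction was therefore kept within the groups that hold both genotypes.

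The genes around the pair did not share its differences in size. The 10 nearest protein-coding genes on the Fn3krp side and the 6 that remain on the Fn3k side in the gene table included 13 measured genes. Of these 0 passed limma's adjusted p of 0.05, 4 had an unadjusted p under 0.05 against 9.50% of all rows, and 0 differed by 4-fold in either direction. Their log2 differences ran from -0.23 to 0.95 with a median of 0.12, beside -0.02 over all rows. Of the 4 with an unadjusted p under 0.05, 3 lay on the Fn3k side, whose 4 measured genes had a median of 0.60 against 0.09 for the 9 on the Fn3krp side. That difference between the sides was not tested.

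On the Fn3krp side the nearest measured genes had small differences. Rab40b, a small GTPase gene, had a log2 difference of -0.23 ± 0.32 (SE) and a Dmrt1 KO mean under the background guide, with its controls between 7.19 and 7.38 and its Dmrt1 KO arrays at 7.11, 7.70 and 6.43. Wdr45b, an autophagy gene, gave 0.12 ± 0.21. Narf, a prelamin A binding protein gene, gave 0.01 ± 0.24, and 0.10 without Dmrt1 KO replicate 3. Rab40b, the gene next to Fn3krp, was thus lowest in Dmrt1 KO replicate 3, and its sign turned without that array (0.10), with the block (0.13) and with array weights (0.04). Further out, the germ cell genes Tex19.1 and Tex19.2 gave 0.55 ± 0.19 (limma adjusted p = 0.415) and 0.15 ± 0.26, the latter 0.38 without Dmrt1 KO replicate 3. The urotensin receptor gene Uts2r, with both group means under the background guide, gave 0.33 ± 0.60, and its sign turned without Dmrt1 KO replicate 3 (-0.21) and with the block (-0.04).

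On the Fn3k side the next gene is Tbcd, which encodes a tubulin folding cofactor. On the log2 scale it measured 11.47, 11.30 and 11.87 in the controls and 12.18, 12.12 and 12.04 in the Dmrt1 KO arrays. All 3 Dmrt1 KO arrays lay above the controls, with a difference of 0.57 ± 0.21 (SE, limma adjusted p = 0.463). Zfp750, a zinc finger gene of epidermal differentiation, gave 0.62 ± 0.27 (limma adjusted p = 0.522). B3gntl1, a glycosyltransferase gene, gave -0.12 ± 0.23, and -0.19 without Dmrt1 KO replicate 3. Metrnl, a gene for a secreted meteorin-like factor, had the largest difference of the 13, at 0.95 ± 0.22 (adjusted p = 0.261, and 0.57 with log2(value + 50)), with its control mean below the background guide. Zfp750 lies inside the span of Tbcd and B3gntl1 overlaps its end in the RefSeq gene table, so if the probes do not tell strands apart their signals are uncertain.

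**Figure D2:**
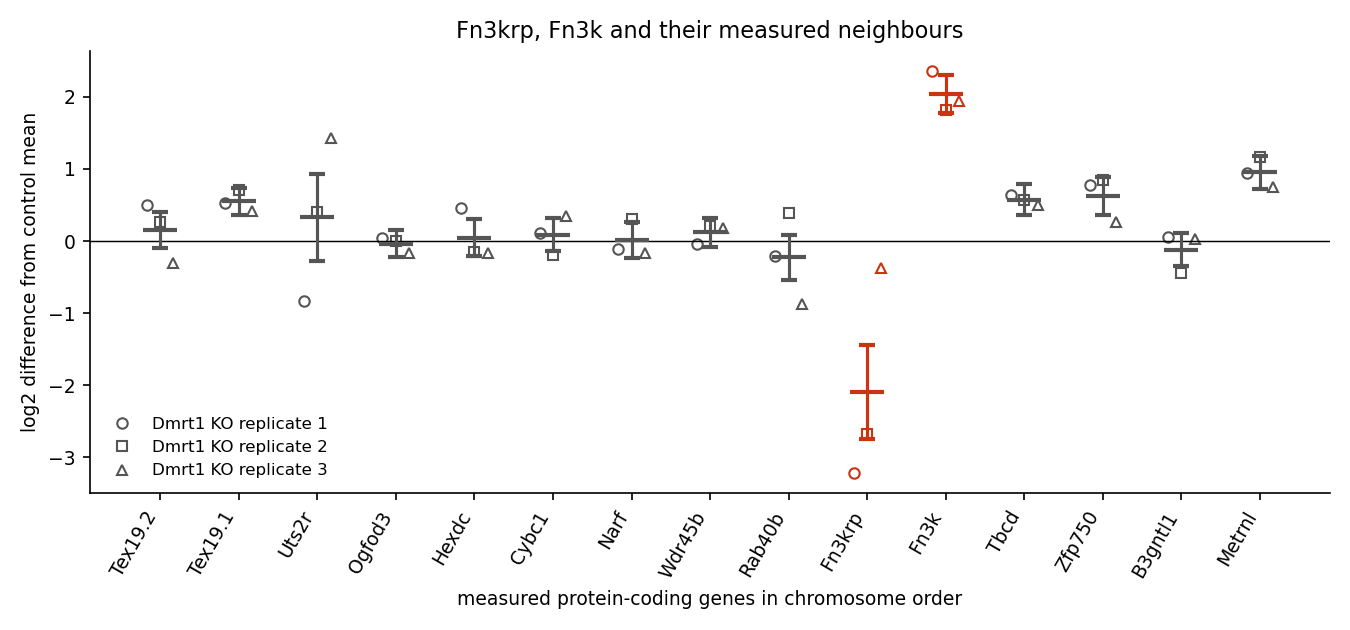
Log2 difference between Dmrt1 KO and control for Fn3krp, Fn3k (row NM_022014) and the 13 measured neighbours in chromosome order. Bars are the mean difference ± SE from limma, and open symbols are the 3 Dmrt1 KO arrays against the control mean. The neighbours lie between -0.23 and 0.95, while Fn3krp is at -2.09 and Fn3k at 2.04.

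The differences of all adjacent genes were set beside those of the pair. Among 14457 adjacent pairs of protein-coding genes with both measured, taking the brightest row of each gene, 1 pair had one gene at least 4-fold higher and the other at least 4-fold lower, and it was Fn3krp and Fn3k. In 0 pairs did both genes differ by 4-fold in the same direction. The pair was selected on these values, so the count describes the table and tests nothing. It also rests on the scale, since with log2(value + 50) the differences of Fn3k (1.60) and Fn3krp (-1.92) both fall short of 4-fold.

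Other genes followed each member's profile over the 6 arrays. Likeness was measured by the root mean square difference between log2 profiles, each centred on its own mean, so a small value means that a gene was high and low in the same arrays by similar amounts. The nearest to Fn3k NM_022014 was Srms, a gene for a Src-related tyrosine kinase, at 0.27. On the log2 scale it measured 4.74, 5.81 and 5.50 in the controls and 7.06, 6.68 and 7.11 in the Dmrt1 KO arrays. Both groups thus lay under the background guide but apart from each other. Dppa5a, an RNA-binding protein gene of pluripotent cells, followed at 0.30, with 8.79, 9.08 and 9.12 in the controls and 10.79, 10.44 and 10.39 in the Dmrt1 KO arrays. The next were Casp14, a caspase gene of keratinocytes (0.30), Adamts16, a secreted metalloprotease gene (0.31), and Mnx1, a homeobox gene of motor neurons and pancreas (0.33). Lctl, a klotho family gene (0.35), Eya1, a developmental phosphatase and coactivator gene (0.36), and Ano7, an anoctamin gene (0.37), completed the 8. Their log2 differences ran from 1.38 for Eya1 to 2.27 for Adamts16. These 8 were picked for likeness to Fn3k, itself selected for its difference, so a difference in this direction was built in. Their adjusted p-values are therefore a description and no separate support. Adamts16 had a limma adjusted p of 0.0127 (log2 difference 1.48 with log2(value + 50)). That call was lost without any 1 of the 3 controls or without Dmrt1 KO replicate 1 or 2, with adjusted p from 0.0742 to 0.146, and kept without Dmrt1 KO replicate 3 (0.00746). The control means of Srms, Adamts16, Mnx1 and Ano7 lay below the background guide. The other 7 did not pass, with adjusted p from 0.0598 for Lctl to 0.205 for Eya1. The 2 Fn3k rows differed from each other by 0.60 on this measure, more than any of the 8 differed from NM_022014. The 8 were the nearest of all other named genes, and NM_001038699 lay under the background guide in every array. Nothing about the 2 transcripts is read from this comparison.

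The 5 genes nearest to Fn3krp were less near, and the first of them was Lrat. Lrat encodes lecithin retinol acyltransferase, the enzyme that stores vitamin A as retinyl esters, and its profile differed from that of Fn3krp by 0.39. On the log2 scale it measured 10.34, 10.21 and 10.24 in the controls and 7.38, 8.57 and 10.13 in the Dmrt1 KO arrays. As with Fn3krp, Dmrt1 KO replicate 1 was lowest, replicate 2 came next and replicate 3 lay just below the controls. The Lrat difference was -1.57 ± 0.59 (SE, limma adjusted p = 0.463), and -2.29 ± 0.34, or 4.89-fold lower, without Dmrt1 KO replicate 3. The next in order were Calhm6, an ion channel family gene (0.78), Slc5a5, the sodium iodide symporter gene (0.81), Odf3l2, a gene related to sperm tail outer dense fibres (0.81), and Notch4, a Notch receptor gene of endothelium (0.81). Calhm6, Slc5a5 and Odf3l2 had both group means under the background guide. None of these 5 genes, likewise picked for their likeness to a selected row, passed limma's adjusted p of 0.05.

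**Figure D3:**
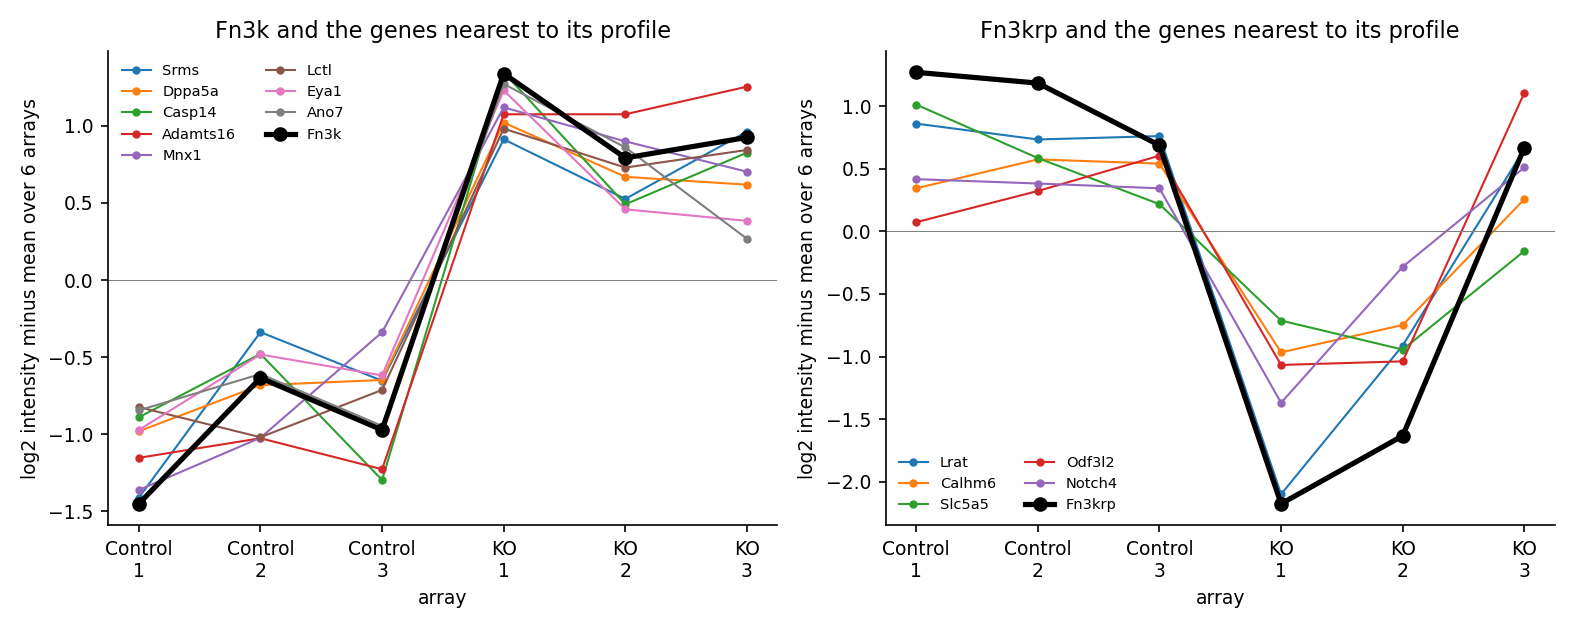
Log2 intensity minus the mean over 6 arrays, for Fn3k NM_022014 with its 8 nearest genes (left) and Fn3krp with its 5 nearest genes (right), each line being 1 gene. The Fn3k group, picked for likeness to Fn3k, separates controls from all 3 Dmrt1 KO arrays. Fn3krp and Lrat dip in Dmrt1 KO replicates 1 and 2 and return near the control values in replicate 3.

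Few bright rows shared the shape of the Fn3krp profile, which was defined from the values of Fn3krp itself. Of the 16848 rows with a control mean above the background guide, 2 were at least 4-fold below that mean in Dmrt1 KO replicates 1 and 2 and within 2-fold of it in replicate 3. The same number, 2, were at least 4-fold below it in all 3 Dmrt1 KO arrays. Of the former, 1 was Fn3krp and the other was XM_131022, which has no gene name here and was chosen after its values were seen. On the log2 scale it measured 8.28, 8.22 and 8.22 in the controls and 5.85, 6.07 and 7.90 in the Dmrt1 KO arrays. In the upward direction 16 of all 25631 rows had the mirrored shape.

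The median of the epididymis and rete markers also differed between Dmrt1 KO replicates 1 and 2 and replicate 3. Not every marker followed it, since Cldn4, Krt18 and Pax8 lay above all controls in replicate 3 too. The median of the 14 measured markers stood 0.93, 1.32 and 0.01 above their control means in the Dmrt1 KO arrays, taken in order of replicate. For the controls it stood at 0.30, -0.33 and -0.24. The summed intensity of the list was 3094 to 5643 in the controls and 6451 to 13709 in the Dmrt1 KO arrays. Of the 14 markers 12 had a log2 difference above 0, beside 48% of all rows. The adjusted threshold was passed by 0 of them (1 without Dmrt1 KO replicate 3), while 5 were under the background guide in every array. Crisp1, an epididymal secretory gene, measured 9.70, 4.11 and 6.49 on the log2 scale in control replicates 1, 2 and 3, where Fn3krp measured 11.00, 10.92 and 10.42. In the Dmrt1 KO arrays Crisp1 measured 9.73, 10.96 and 4.46 and Fn3krp 7.56, 8.10 and 10.40. Fn3krp was thus low in 2 of the 3 arrays in which Crisp1 was high, and not in control replicate 1. The part of these markers in the Fn3krp and Fn3k values was not tested.

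Groups did not overlap in 4 of the 14 epididymis and rete markers, and in 15.3% of all rows. The 3 with the lowest p were higher in the Dmrt1 KO arrays. The other, Rnase10, was lower, at -1.12 ± 0.26 (SE), with both group means under the background guide. The tight junction gene Cldn4 was 3.87-fold higher (limma adjusted p = 0.0830), or 1.95 on the log2 scale against 1.55 with log2(value + 50), its control mean being below the background guide. Krt18, a keratin of simple epithelia, was 3.46-fold higher (adjusted p = 0.185), and Pax8, a transcription factor of the duct epithelium, was 2.21-fold higher (adjusted p = 0.203). Red blood cells, in which both kinases are known, were looked for through 12 measured erythroid markers. Their median log2 difference was -0.17, with 2 above 0, and the gene with the lowest p was Gata1, which Sertoli cells also express (-0.53 ± 0.23, SE). The globin gene Hbb-b2 was at 11.68, 12.45 and 12.21 in the controls and 11.97, 11.82 and 11.78 in the Dmrt1 KO arrays, overlapping between the groups. Relative to the control means, the median of the erythroid list stood at -0.10, -0.15 and -0.24 in the 3 Dmrt1 KO arrays and at -0.12, 0.15 and -0.04 in the controls. The part of these markers in the Fn3k value was not tested.

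The other marker lists had 0 genes past limma's adjusted p of 0.05. The median log2 difference was 0.31 for Leydig cells (8 of 8 above 0), -0.25 for macrophages (0 of 9), -0.55 for meiotic prophase (1 of 10, and -0.36 without Dmrt1 KO replicate 3) and -0.07 for germ cells (4 of 12). It was -0.00 for Sertoli cells (5 of 11), 0.08 for peritubular myoid cells (5 of 6) and 0.14 for endothelium (6 of 7). Over all rows 48% lay above 0. Without Dmrt1 KO replicate 3 the numbers above 0 were 7 for Leydig cells, 1 for macrophages, 2 for meiotic prophase and 5 for germ cells. They were 5 for Sertoli cells, 3 for peritubular myoid cells and 5 for endothelium. The median of the Leydig markers stood 0.37, 0.09 and 0.47 above their control means in the 3 Dmrt1 KO arrays and at 0.02, -0.27 and 0.24 in the controls, so the groups overlapped. The part of these markers in the Fn3k value was not tested.

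The lists of genes that share the chemistry of the pair had medians near 0. Across the 5 pathway lists 0 of 76 measured genes passed limma's adjusted p of 0.05, and 9 had an unadjusted p under 0.05 (9.50% of all rows did). The counts above 0 given for these lists stand beside 48% of all rows. In the list of deglycation and dicarbonyl defence, which removes early glycation adducts and the reactive sugars that form them, 14 of 18 genes lay above 0 with a median of 0.09. Dcxr, a dicarbonyl and xylulose reductase gene, measured 9.05, 9.03 and 8.85 in the controls and 9.48, 9.53 and 9.54 in the Dmrt1 KO arrays on the log2 scale. Those groups did not overlap, with a difference of 0.54 ± 0.18 (SE, adjusted p = 0.411). The aldo-keto reductase genes Akr1b10, Akr1b7 and Akr1a1 gave 0.48 ± 0.22, 0.39 ± 0.22 and 0.21 ± 0.19.

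Receptors that bind glycated proteins had a median of 0.03 over 9 genes, with 5 above 0 and 0 at an unadjusted p under 0.05. Ager, the receptor for advanced glycation end products, gave 0.53 ± 0.24 (SE) with no overlap between the groups. The scavenger receptor genes Cd36, Msr1 and Stab1 gave 0.72 ± 0.38, -0.48 ± 0.27 and -0.32 ± 0.21. Cd36 and Msr1 had both group means below the background guide, and without Dmrt1 KO replicate 3 they gave 1.10 and -0.24.

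Fructose and polyol genes, which make, carry and use fructose, had a median of -0.01 over 16 genes, 8 of them above 0. The fructose transporter gene Slc2a5 measured 6.44, 6.64 and 7.80 in the controls and 8.75, 7.52 and 8.56 in the Dmrt1 KO arrays on the log2 scale. The groups overlapped, since control replicate 3 exceeded Dmrt1 KO replicate 2, and the difference was 1.32 ± 0.44 (SE, limma adjusted p = 0.411), with the control mean below the background guide. The glucose transporter gene Slc2a2 gave -0.87 ± 0.36 and the sorbitol dehydrogenase gene Sord -0.52 ± 0.32, the latter -0.17 without Dmrt1 KO replicate 3.

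Genes of the pentose phosphate pathway and ribose use, which handle ribose and its phosphates, had a median of -0.12 over 15 genes, 5 of them above 0. G6pdx, the enzyme gene of the pathway's first step, gave 0.51 ± 0.21 (SE, limma adjusted p = 0.504). The ribokinase gene Rbks and the epimerase gene Rpe gave -0.48 ± 0.20 and -0.44 ± 0.21, and Prps1l1, a phosphoribosyl pyrophosphate synthetase gene of testis, -0.76 ± 0.20 with both means under the background guide. These 4 genes had the lowest p of the list, and the groups did not overlap in them, nor in 3 other genes of the list, where 15.3% of all rows did not overlap.

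In human cells FN3K is known to remove sugars from the stress response factor NRF2, so Nrf2 (Nfe2l2) and its targets formed the fifth list. Of its 19 genes 14 lay above 0, with a median of 0.15 and 2 at an unadjusted p under 0.05. Nqo1, a quinone reductase gene, measured 10.15, 10.11 and 10.37 in the controls and 10.78, 11.04 and 10.69 in the Dmrt1 KO arrays on the log2 scale. The Nqo1 groups did not overlap, with a difference of 0.63 ± 0.20 (SE, limma adjusted p = 0.386). The thioredoxin reductase gene Txnrd1 gave 0.58 ± 0.20, and the glutathione transferase genes Gsta3 and Gstm1 gave -0.54 ± 0.25 and 0.45 ± 0.25.

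**Figure D4:**
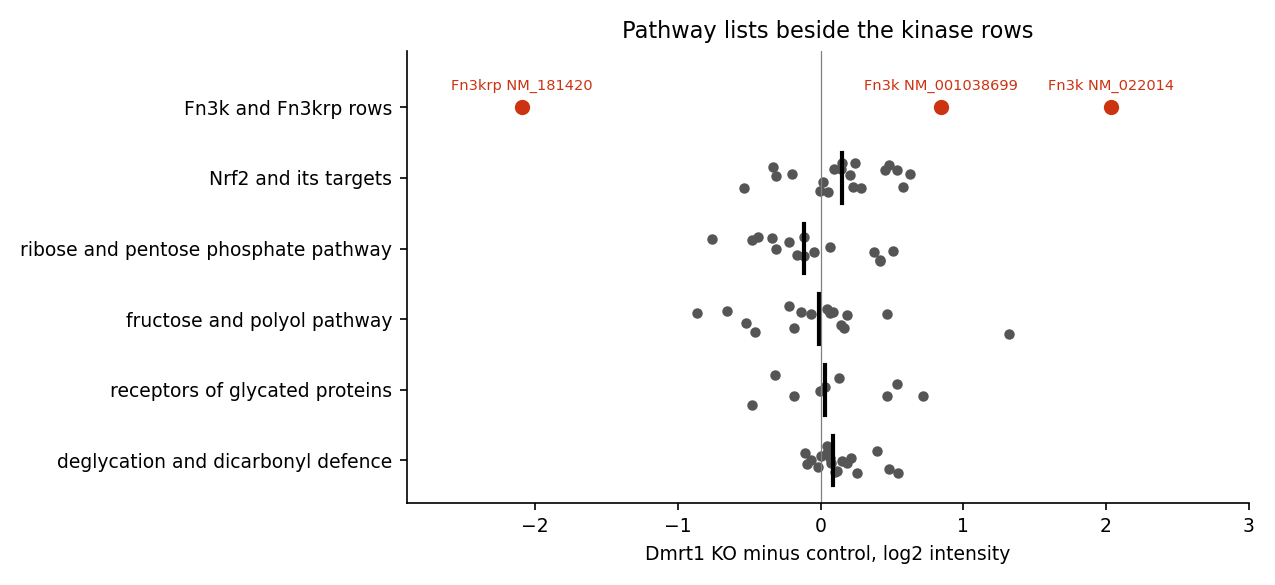
Log2 difference between Dmrt1 KO and control for each measured gene of the 5 pathway lists (grey points, with the list median as a black line) and for the 3 rows of Fn3k and Fn3krp (red). The list medians lie between -0.12 and 0.15, while the kinase rows lie at -2.09, 0.84 and 2.04; vertical scatter within a list only separates the points.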

How the data were processed

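The values deposited are linear intensity, 1 per RefSeq accession and array, made by the authors with RMA per the submitters' processing notes. The version of RMA, its background correction, the probe annotation and the build behind it are not stated in these sources. Log2 of the deposited intensity was taken with no further normalization, and all per-sample columns were used. RefSeq accessions were matched without versions to the gene table of GRCm38.p6, which named 17780 of 25631 rows for 17277 genes. That table also gave gene order and the overlaps of neighbouring genes. No coordinates are printed other than those of the Fn3krp promoter window, because the builds may differ. Protein sequences were not used here.

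All rows were fitted together with lmFit and eBayes of limma 3.58.1 under R 4.3.3, 3 control against 3 Dmrt1 KO arrays, without a covariate or filter. P-values were adjusted over all rows by the Benjamini-Hochberg method with a threshold of 0.05. Errors of differences are limma's moderated SE (4 residual degrees of freedom, to which eBayes added 3.96). The fit was also run on simulated data with independent noise and no array that stood apart. That run therefore does not cover an array such as Dmrt1 KO replicate 3. No exact permutation test was used, since with 3 arrays a group its smallest two-sided p is 0.1. The number of arrays limits the precision.

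The members, gene lists and rules were chosen with earlier results of these data known. A gene other than a member is given by its brightest row. The rule named every member row and Dmrt1, the 8 and 5 genes nearest in profile, the 3 nearest measured neighbours on each side with up to 4 others of smallest limma p, up to 4 genes of each pathway list and up to 3 of each marker list. One gene that the rule named is not reported here. Crisp1, Hbb-b2 and Rnase10 were named after their values were seen, and so was XM_131022. Replicates are numbered in order of accession, which pairs nothing. The alternatives were quantile normalization, subtraction of array medians, log2(value + 50), leaving out the dimmest 50% of rows, eBayes with trend and robust settings, array weights, each array left out in turn and a block for the array number group. Plots used matplotlib 3.10.9 under Python 3.11.15.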

Additional observations from a re-analysis of the deposited data

How the results depend on the processing

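All 3 member rows kept their direction under every alternative run. With log2(value + 50) the log2 difference moved from 2.04 to 1.60 for Fn3k NM_022014 and from 0.84 to 0.34 for Fn3k NM_001038699, because a constant added to dim values shrinks their ratio. Within array number group 1 it was 2.79 and 1.71 for these rows and -3.44 for Fn3krp, and within group 2 it was 1.60 for Fn3k NM_022014. With each array left out in turn the difference ran from 1.82 to 2.23 for Fn3k NM_022014, from 0.59 to 1.09 for Fn3k NM_001038699 and from -2.95 to -1.53 for Fn3krp, whose extremes were without Dmrt1 KO replicate 3 and without Dmrt1 KO replicate 1. Both Fn3k rows fall out of the table when the dimmest 50% of rows are left out, so that alternative gave no value for them.

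The count of rows past the adjusted threshold was 8 in the main test, 52 with the dimmest 50% of rows left out, 81 with trend and robust settings, 60 with array weights and 49 when the array number group was a block. It ran from 0 to 47 with 1 array left out. Of the 3 member rows, Fn3k NM_022014 passed with trend and robust settings (0.316% of all rows did) and with array weights (0.234%). Fn3krp passed when the array number group was a block (0.191%) and without Dmrt1 KO replicate 3 (0.183%). The block gives that array no weight, so both settings set aside the Dmrt1 KO array in which Fn3krp was near the controls. These member calls use the values that chose the pair, and nothing is read from them. The cause of the changes in the counts was not tested. The counts of neighbour genes and of pathway list genes past the threshold were 0 in the main test and under every alternative, and ran from 0 to 0 with 1 array left out. No paired analysis was possible because the replicate numbers follow the order of deposition only. Of 1216 values of 83 single genes under the alternatives, 1141 moved by less than the SD between replicates and 75 by more. Fn3k NM_001038699 is limited by its signal, which lay under the background guide in every array.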
